A study of Mus musculus with 7 samples.

Results

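The levels of 9 genes of MHC class I antigen presentation were followed in macrophages of injured nerve, across the 7 RNASeq libraries of the series. The genes are H2-K1, H2-D1 and H2-T23, which encode class I heavy chains, B2m, Tap1, Tap2, Tapbp, Erap1 and Nlrc5. They were chosen by gene symbol from 23361 genes in the expression table, and all 9 were found. The animals were BALB/cJ mice whose left sciatic nerve was transected and immediately repaired within a conduit. Macrophages (Lin-F4/80+CD14+CD11b+CD16/32+) were sorted from the tissue bridging the gap at day 5 (n = 3 libraries), day 14 (n = 2 libraries) and day 28 (n = 2 libraries) after repair. Every group therefore carried the same injury, and no macrophages from uninjured nerve were part of the comparison. The series record describes the libraries as independent biological replicates, but the age and sex of these mice, and whether a library came from 1 animal or from several, were not given in the sources used here. Libraries held 18027190 to 35247116 fragments assigned to genes. The 9 genes took 0.426% to 0.734% of them, so that the least abundant, Nlrc5, still had at least 590.0 fragments in every library.

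Class I molecules display peptides from inside the cell to CD8 T cells. A heavy chain pairs with beta-2-microglobulin (B2m), peptides are cut by the proteasome and carried into the endoplasmic reticulum by the TAP1/TAP2 transporter, tapasin (Tapbp) holds the empty heavy chain to that transporter, and the aminopeptidase ERAP1 trims peptides to length. NLRC5 acts in the nucleus on class I promoters as CIITA does on class II promoters, and interferon gamma raises the transcription of most of these genes. In macrophages, class I display makes the cell visible to CD8 T cells and allows presentation of engulfed material.

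Most of the genes lie in the major histocompatibility complex on mouse chromosome 17 (build GRCm38, which is mm10, GENCODE M21 annotation, all protein coding). These are Tapbp (chr17:33915899-33929292, plus strand), H2-K1 (chr17:33996017-34000347, minus strand), Tap1 (chr17:34187553-34197225, plus), Tap2 (chr17:34203527-34216321, plus), H2-D1 (chr17:35262730-35267499, plus) and H2-T23 (chr17:36029773-36032855, minus). B2m (chr2:122147686-122153083, plus), Nlrc5 (chr8:94434356-94527272, plus) and Erap1 (chr13:74639568-74693201, plus) lie elsewhere. The 250 bases before the RefSeq start of H2-K1, H2-D1 and B2m are printed because these genes encode the subunits of the class I molecule itself and lie on 2 chromosomes. The sequences are RefSeq reference sequence (GRCm38.p6, from C57BL/6J), written 5′ to 3′ on the strand of the gene, with the last base next to the RefSeq start. For H2-D1 that start lies downstream of the GENCODE one, so its window lies within the gene coordinates given above. Capitals mark matches, on either strand, to an interferon regulatory factor-type motif (AANTGAAA), an NF-kB-type motif (GGG and TTNCC with 2 bases between them), a cyclic AMP response element-type motif (TGACGNG) and the CCAAT box (CCAAT).
H2-K1, chr17:34000348-34000597, minus strand: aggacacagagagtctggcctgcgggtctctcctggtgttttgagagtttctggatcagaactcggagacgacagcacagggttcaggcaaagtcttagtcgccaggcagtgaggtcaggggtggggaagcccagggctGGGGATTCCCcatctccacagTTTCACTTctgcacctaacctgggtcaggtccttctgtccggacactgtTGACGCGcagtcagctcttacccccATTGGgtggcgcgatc
H2-D1, chr17:35262844-35263093, plus strand: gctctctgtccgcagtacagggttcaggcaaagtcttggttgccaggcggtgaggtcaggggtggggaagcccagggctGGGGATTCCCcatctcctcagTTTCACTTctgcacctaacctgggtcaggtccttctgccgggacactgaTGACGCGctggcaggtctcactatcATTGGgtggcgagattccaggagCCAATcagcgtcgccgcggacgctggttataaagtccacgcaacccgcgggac
B2m, chr2:122147437-122147686, plus strand: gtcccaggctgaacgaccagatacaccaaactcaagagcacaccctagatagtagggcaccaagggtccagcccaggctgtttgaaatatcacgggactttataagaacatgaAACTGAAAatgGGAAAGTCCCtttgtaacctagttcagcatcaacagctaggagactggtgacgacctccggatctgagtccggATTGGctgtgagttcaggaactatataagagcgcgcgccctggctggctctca

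In H2-K1 and H2-D1 the 4 motifs stood in the same order, with the NF-kB-type match first, then the interferon regulatory factor-type match, the response element-type match and the CCAAT box. Counted from the RefSeq start, their first bases were 111, 90, 41 and 16 bases before the start in H2-K1, and 171, 150, 101 and 76 bases before it in H2-D1. Both had another CCAAT box, at 53 bases before the start in H2-D1 and within the 50 bases after it, beyond the bases printed, in H2-K1. B2m held the interferon regulatory factor-type match 137 bases before its start, an NF-kB-type match at 126 and a CCAAT box at 53. Windows from 250 bases before to 50 after the start were found for 7 of the 9 genes (H2-K1, H2-D1, H2-T23, B2m, Tap1, Tapbp and Erap1). Of these 7, 4 held the interferon regulatory factor-type motif (H2-K1, H2-D1, B2m and Erap1), against 6.58% of 32851 windows. The NF-kB-type motif was in 3 of the 7 (4.79% of windows), the response element-type motif in 2 (6.36%) and the CCAAT box in 6 (37.4%). The motifs were chosen with the sequences known, and the similar windows of H2-K1 and H2-D1 both count. The shares over all windows are therefore given for scale and are no test of enrichment. These are matches of letters in reference sequence and say nothing of binding in these cells.

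Levels of the 9 genes ran from 3698 for B2m down to 4.30 for Nlrc5 on the FPKM scale (fragments per length of transcript and size of library, a level per length). The order by mean FPKM was B2m, H2-D1, H2-K1, H2-T23, Tapbp, Tap1, Tap2, Erap1 and Nlrc5. The order from B2m to Tapbp was kept within each of the 7 libraries, although the ranges of B2m and H2-D1, of H2-K1 and H2-T23, and of H2-T23 and Tapbp overlapped across libraries. Tap1 was above Tap2 in 5 of 7 libraries and below it in both day 28 libraries, so their order was not fixed. BALB/c mice carry the d haplotype of the complex, whereas reads were mapped to the reference of C57BL/6J, which carries the b haplotype, and the effect of this on the levels of H2-K1, H2-D1 and H2-T23 was not tested. All 7 libraries came from the same strain. Of all 75-base stretches of the annotated H2-T23 transcript, 13.1% also occurred in transcripts of other genes, against 6.90% for H2-D1, 1.55% for H2-K1, 0.992% for Tapbp and 0% for B2m, Tap1, Tap2, Erap1 and Nlrc5.

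**Figure D1:**
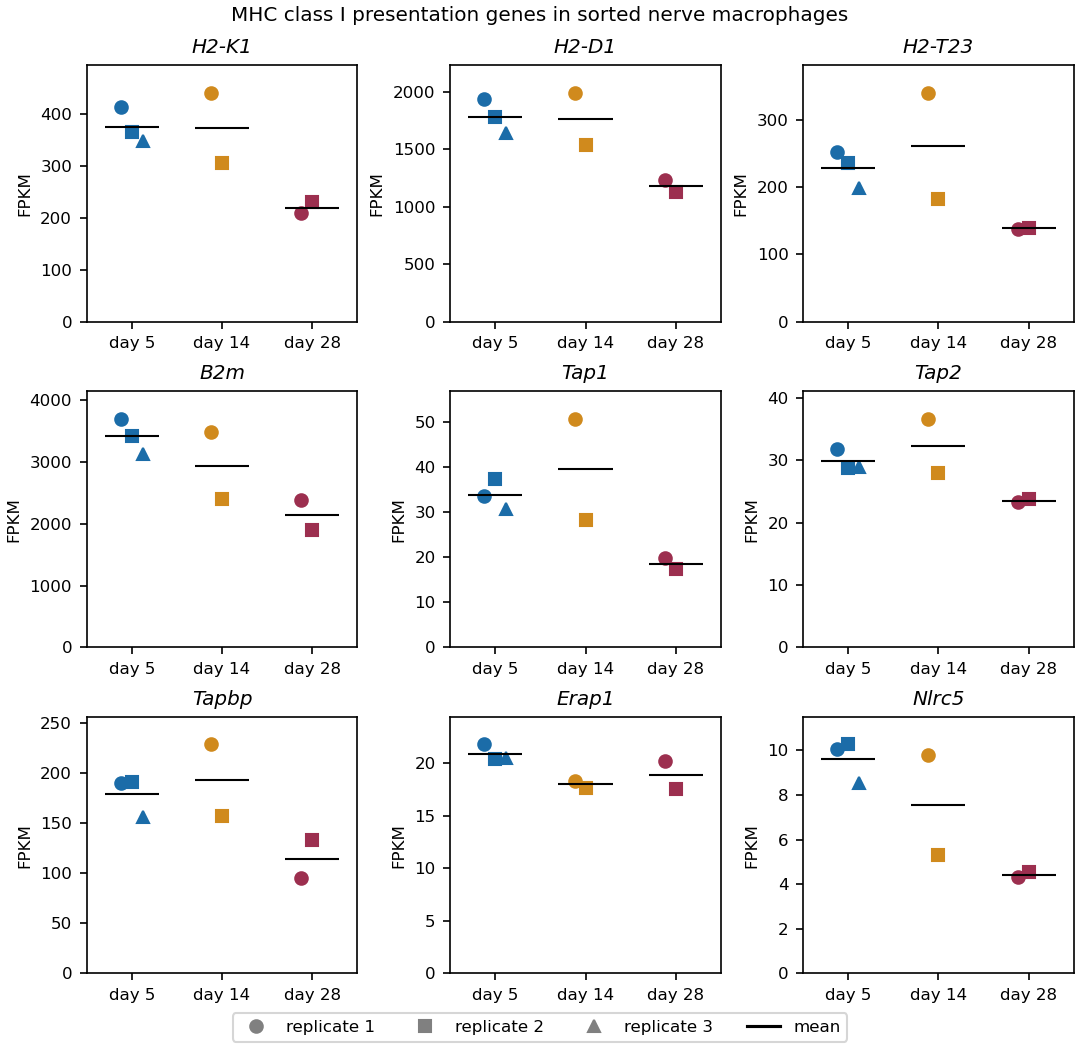
FPKM of each of the 9 genes (y axis, linear, starting at 0) in the 3 day 5, 2 day 14 and 2 day 28 libraries, with 1 point per library and a bar at the group mean. Both day 28 libraries sit below all 3 day 5 libraries for each of the 9 genes, from Nlrc5, at 4.30 and 4.54 against 8.53 to 10.3 at day 5, to Erap1, at 20.3 and 17.6 against 20.4 to 21.8.

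The class I subunit genes were lower at day 28 than at day 5. H2-K1, the classical K heavy chain, measured 414, 365 and 348 FPKM in the day 5 libraries, 442 and 306 FPKM at day 14, and 210 and 230 FPKM at day 28. Its mean was 376 ± 34.4 FPKM (SD, n = 3) at day 5 and 220 ± 14.6 FPKM (SD, n = 2) at day 28. The day 28 libraries lay below every other library, whereas the day 14 libraries lay on either side of the day 5 range. In the edgeR quasi-likelihood fit over all 7 libraries, H2-K1 fell 1.69-fold from day 5 to day 28 (log2 fold change -0.76, SE 0.17, Benjamini-Hochberg adjusted p = 0.0180). RNA of a sorted population was measured, and fewer cells of a type cannot be told apart from less RNA per cell.

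H2-D1, the classical D heavy chain, was the most abundant heavy chain, at 74.7% ± 0.305 (SD, n = 3) of the summed FPKM of the 3 heavy chains at day 5 and 76.6% ± 1.92 (SD, n = 2) at day 28. It measured 1938, 1779 and 1641 FPKM at day 5, 1995 and 1541 FPKM at day 14, and 1231 and 1126 FPKM at day 28. As with H2-K1, both day 28 libraries were the lowest of the 7, and day 14 spread to either side of day 5. H2-D1 fell 1.501-fold from day 5 to day 28 (log2 fold change -0.59, SE 0.15, adjusted p = 0.0291). Its fragments were not whole numbers in 7 of 7 libraries, and added to those of H2-L, a D-region heavy chain gene that BALB/c mice carry, they gave whole numbers to within 0.042 fragments, so fragments were shared between these genes. H2-L, which was picked after its values were seen, took 0.571% to 2.06% of the fragments assigned to the pair. This share depends on how shared fragments were divided and is not a measure of H2-L RNA against H2-D1 RNA. Its level was 42.8, 41.1 and 42.2 FPKM at day 5, 49.6 and 38.5 FPKM at day 14, and 12.5 and 42.0 FPKM at day 28, and the 2 day 28 libraries thus did not match each other.

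B2m, the invariant light chain, measured 3698, 3416 and 3130 FPKM at day 5, 3481 and 2399 FPKM at day 14, and 2388 and 1901 FPKM at day 28. Both day 28 libraries lay below all of day 5, and day 14 replicate 2 lay just above the higher of them. B2m fell 1.58-fold from day 5 to day 28 (log2 fold change -0.66, SE 0.18, adjusted p = 0.0398). B2m over the summed FPKM of H2-K1, H2-D1 and H2-T23 was 1.42, 1.44 and 1.43 at day 5, 1.25 and 1.18 at day 14, and 1.51 and 1.27 at day 28, so that the day 28 libraries spanned the day 5 values and the day 14 libraries were lowest.

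H2-T23 encodes Qa-1, a nonclassical heavy chain that presents leader peptides of other class I molecules to NK cell receptors. It measured 252, 236 and 198 FPKM at day 5, 340 and 183 FPKM at day 14, and 138 and 140 FPKM at day 28. The day 28 libraries were close to each other and below all others, but the log2 fold change from day 5 (-0.71, SE 0.23) did not pass the threshold (adjusted p = 0.0668). Day 14 replicate 1 was the highest library of the 7 and replicate 2 was below all of day 5.

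Of the transporter genes, Tap1 passed the threshold between day 5 and day 28 and Tap2 did not. Tap1 measured 33.7, 37.4 and 30.6 FPKM at day 5, 50.8 and 28.2 FPKM at day 14, and 19.9 and 17.4 FPKM at day 28. Tap2 measured 31.8, 28.7 and 29.0 FPKM at day 5, 36.7 and 27.9 FPKM at day 14, and 23.3 and 23.8 FPKM at day 28. Tap1 fell 1.801-fold from day 5 to day 28 (log2 fold change -0.85, SE 0.22, adjusted p = 0.0314). Tap2 stood at -0.33 on the log2 scale (SE 0.13, adjusted p = 0.120), with a 95% interval from -0.62 to -0.04. Within a library, the ratio of Tap1 to Tap2 FPKM was 1.06, 1.30 and 1.06 at day 5, 1.38 and 1.01 at day 14, and 0.853 and 0.731 at day 28. This ratio was given as a description and was not tested.

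Tapbp, encoding tapasin, measured 191, 191 and 156 FPKM at day 5, 229 and 157 FPKM at day 14, and 95.5 and 133 FPKM at day 28. Day 28 was again lowest, with a wider gap between its libraries than for the heavy chains, and the log2 fold change from day 5 was -0.64 (SE 0.20, adjusted p = 0.0596). Erap1, the peptide-trimming aminopeptidase, varied least among the 9 genes, at 21.8, 20.4 and 20.5 FPKM at day 5, 18.3 and 17.7 FPKM at day 14, and 20.3 and 17.6 FPKM at day 28. Its log2 fold change from day 5 to day 28 was -0.13 (SE 0.11, adjusted p = 0.452), with a 95% interval from -0.37 to 0.11.

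Nlrc5, the class I transactivator, was the least abundant gene and had the largest fitted change of the 9 between day 5 and day 28. It measured 10.1, 10.3 and 8.53 FPKM at day 5, 9.81 and 5.29 FPKM at day 14, and 4.30 and 4.54 FPKM at day 28. Day 14 replicate 1 lay within the day 5 range, replicate 2 lay near day 28, and both day 28 libraries lay below all others. Nlrc5 fell 2.16-fold from day 5 to day 28 (log2 fold change -1.11, SE 0.22, adjusted p = 0.0129).

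Between day 28 and day 5, then, 5 of the 9 genes fell (Nlrc5, H2-K1, H2-D1, Tap1 and B2m) and none rose, where 15.2% of the 12858 genes tested passed the threshold, 7.51% as lower and 7.74% as higher (edgeR, Benjamini-Hochberg adjusted p under 0.05). All 9 had a negative log2 fold change, with a median of -0.66 beside 0.03 over all genes tested, and 8 had an unadjusted p under 0.05 (31.5% of all genes tested). FPKM of the 2 time points did not overlap for the 9 genes, all lower at day 28, as for 25.6% of genes tested. The count of 5 rested on individual libraries. Without day 28 replicate 1 or without day 28 replicate 2 it was 0, without day 5 replicate 1 or 2 it was 1 (Nlrc5), and without day 5 replicate 3 it was 2 (H2-K1 and Nlrc5), while without day 14 replicate 1 or 2 it was 7 or 8. Where 1 library was left at a time point, the fit took its spread from the other time points. The log2 fold changes stayed between -1.18 and -1.06 for Nlrc5 and between -0.83 and -0.68 for H2-K1 over these 7 fits. With the 2 time points fitted alone 8 genes passed, where 2778 of 12594 genes tested passed in either direction. With an adjusted p under 0.01 required none of the 9 genes did.

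**Figure D2:**
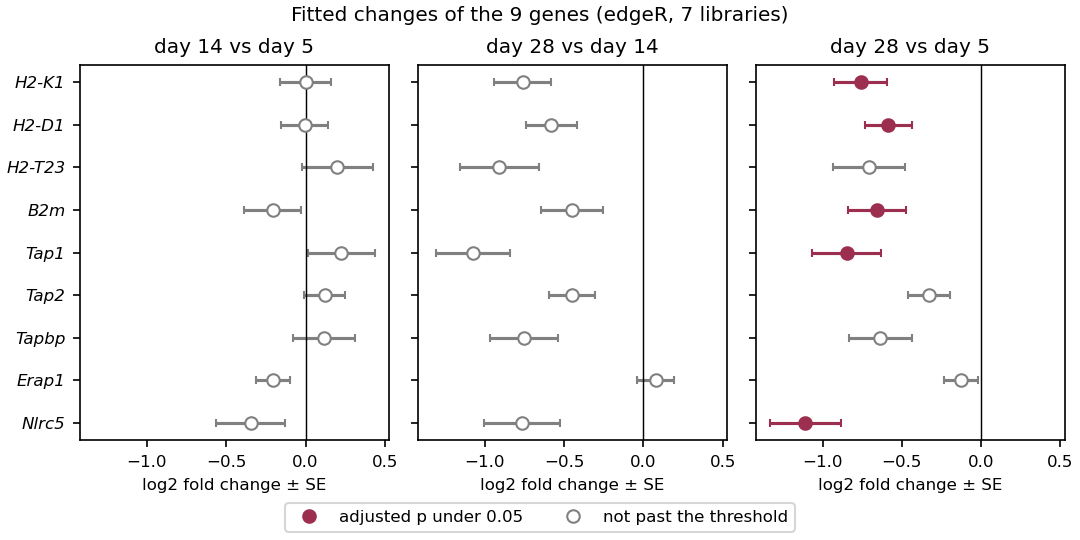
Log2 fold change with its standard error (x axis) for each of the 9 genes in the 3 pairwise comparisons, from the edgeR fit over 7 libraries, with filled points for adjusted p under 0.05. For day 28 vs day 5 the filled points are Nlrc5 (-1.11), Tap1 (-0.85), H2-K1 (-0.76), B2m (-0.66) and H2-D1 (-0.59), and no point is filled in the other comparisons.

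Between day 28 and day 14, 0 of the 9 genes passed the threshold, where 0.0622% of all genes tested did. The fitted values nonetheless pointed one way: 8 of 9 were lower at day 28, 8 had an unadjusted p under 0.05 (12.2% of all genes tested), and the median log2 fold change was -0.75 beside 0.01 over all genes. Day 28 FPKM lay below both day 14 libraries for the 8 genes other than Erap1, as for 19.7% of genes tested. Tap1 had the lowest adjusted p (log2 fold change -1.07, SE 0.24, adjusted p = 0.120), followed by H2-K1 (-0.76, SE 0.18, adjusted p = 0.134). H2-T23 stood at -0.91 (SE 0.25, adjusted p = 0.185), Nlrc5 at -0.76 (SE 0.24, adjusted p = 0.244) and Erap1 at 0.08 (SE 0.12, adjusted p = 0.834). DESeq2 called 5 genes lower (H2-D1, H2-K1, H2-T23, Tap1 and Tapbp), and limma 0. The edgeR fit without the filter on low counts also called 5 (H2-K1, H2-T23, Nlrc5, Tap1 and Tapbp). Over all genes, in either direction, DESeq2 called 322 of the 23361 in the table, edgeR without the filter 390 of 17299, and limma 0. Leaving out day 14 replicate 2, the lower of the day 14 libraries for all 9 genes, gave 8 calls, which rest on day 14 replicate 1 alone with the spread taken from the other time points, whereas leaving out any other library gave 0. This comparison shares its day 28 libraries with day 28 vs day 5, and its day 14 libraries with day 14 vs day 5.

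Between day 14 and day 5, 0 of the 9 genes passed the threshold and 0 had an unadjusted p under 0.05, where 4.78% of all genes tested passed the threshold and 3083 of 12858 had such an unadjusted p. DESeq2 and limma called 0 as well. The log2 fold changes ran from -0.35 for Nlrc5 (SE 0.22, adjusted p = 0.372) to 0.23 for Tap1 (SE 0.21, adjusted p = 0.554). H2-K1 was at 0.00049 (SE 0.16, 95% interval -0.37 to 0.37), and changes within this interval were not detectable with these libraries. The FPKM ranges of the 2 time points overlapped for 8 of the 9 genes. Erap1 was the exception, with both day 14 libraries below day 5 (log2 fold change -0.21, SE 0.11, adjusted p = 0.283), as for 21.4% of genes tested. Day 14 replicate 1 exceeded every day 5 library for H2-K1, H2-D1, H2-T23, Tap1, Tap2 and Tapbp, and day 14 replicate 2 was below every day 5 library for H2-K1, H2-D1, H2-T23, B2m, Tap1, Tap2, Erap1 and Nlrc5. Without day 14 replicate 1, Nlrc5 passed the threshold, with day 14 then represented by 1 library.

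Whether day 14 departed from the midpoint of the earlier and later time points was tested in the same fit. For 0 of the 9 genes did the difference pass the threshold (0.0156% of all genes tested), with 5 at an unadjusted p under 0.05 (12.6% of all genes tested) and limma and DESeq2 at 0 calls. The largest difference was that of Tap1 (log2 0.65 above the mean of days 5 and 28, SE 0.19, adjusted p = 0.251), and without day 14 replicate 2, with 1 library left at day 14, it passed together with H2-K1 and H2-T23. The step before day 14 was therefore not shown to differ from the step after it.

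Cell type markers were read beside these comparisons. The sort genes Cd14, Itgam and Emr1 (encoding F4/80), with Csf1r, Cd68 and Lyz2, were at 195 FPKM or more in all libraries. Between day 5 and day 28 both Emr1 and Cd14 fell. Emr1 measured 470, 393 and 365 FPKM at day 5 and 195 and 209 FPKM at day 28 (log2 fold change -1.01, SE 0.17, adjusted p = 0.00650), and no longer passed without day 28 replicate 1. Cd14, an endotoxin co-receptor, was at -0.76 (SE 0.16, adjusted p = 0.0145), and no longer passed without day 5 replicate 1 or without day 28 replicate 1. Itgam was at -0.45 (SE 0.17, adjusted p = 0.105). The other sort genes, Fcgr3 (0.12, SE 0.11, adjusted p = 0.481) and Fcgr2b (-0.30, SE 0.12, adjusted p = 0.132), did not pass. Neither did Csf1r (0.11, SE 0.12, adjusted p = 0.552) or Lyz2 (0.29, SE 0.17, adjusted p = 0.275). Cd68 (-0.36, SE 0.12, adjusted p = 0.0738) and Mertk (-0.13, SE 0.21, adjusted p = 0.708) did not pass. The 9 macrophage markers found of 10 listed, of which Lyz2 alone measured 10675 to 18376 FPKM, had sums of 16417 to 18881 FPKM (day 5), 17625 and 22490 FPKM (day 14), and 18886 and 18204 FPKM (day 28). B cell markers (5 of 5 found) summed to between 4.42 and 10.8 FPKM in all libraries, lowest in the day 28 libraries, with Pax5 at 1 fragment or fewer in every library. T and NK cell markers (10 of 10) had their highest sum at day 14 (15.5 and 8.73 FPKM), against 2.89 to 7.91 FPKM elsewhere. At day 14 Cd4 alone made up 13.1 and 7.54 FPKM of these sums. Cd3e, Cd3d, Cd3g and Cd8a were at most at 0.395 FPKM in any library. Cd4 rose from day 5 to day 14 (log2 fold change 1.83, SE 0.28, adjusted p = 0.0157, lost without day 5 replicate 2 or 3). At day 28 Cd4 was at 0.96 against day 5 (SE 0.28, adjusted p = 0.0471), a call lost in limma and without any single day 5 or day 28 library. Dendritic cell markers (9 of 9), a cell type with strong antigen presentation, summed to at most 18.0 FPKM in day 5 libraries. In day 28 libraries the sums were 22.4 and 38.5 FPKM. The chemokine receptor gene Ccr7 made up 12.6 and 22.98 FPKM at day 28 and 3.73 to 8.27 FPKM at day 5. Ccr7 passed as higher at day 28 than at day 5 (log2 fold change 1.43, SE 0.39, adjusted p = 0.0400). That call was lost in DESeq2, in limma and without any single day 5 or day 28 library. Flt3, Zbtb46, Xcr1 and Clec9a were each under 1 FPKM in all day 5 and day 28 libraries. Endothelial markers (6 of 6) had lower sums at day 28, at 7.18 and 3.75 FPKM against 14.6 to 27.1 FPKM at day 5. Of these Kdr (log2 fold change -3.02, adjusted p = 0.00290) and Pecam1 (-1.80, adjusted p = 0.0145, lost without day 28 replicate 2) fell, Tek rose at levels of at most 0.267 FPKM (adjusted p = 0.0208, lost in limma and without day 5 replicate 2 or 3 or day 28 replicate 1), and Cdh5, Cldn5 and Emcn overlapped between the time points. Schwann cell markers (7 of 7) also had lower sums, at 153 and 156 FPKM against 242 to 294 FPKM, of which Pmp22 made up 133 and 138 FPKM at day 28 and 230 to 283 FPKM at day 5, while Mbp was higher at day 28, at 19.5 and 17.2 FPKM against 10.3 to 11.4 FPKM, and the defining Schwann genes Sox10 and S100b were at most at 0.169 FPKM. Fibroblast markers (7 of 7) were highest in day 14 replicate 1 at 223 FPKM, against 28.8 to 81.2 FPKM elsewhere. Of that sum Col1a1, Col1a2 and Col3a1 made up 82.4, 48.1 and 76.1 FPKM, and Thy1 1.22 FPKM. Only Col1a2 of this list passed as higher at day 14 vs day 5 (log2 fold change 1.86, SE 0.39, adjusted p = 0.0350). That call was lost in limma and without any single day 5 or day 28 library. Granulocyte markers (7 of 8, Elane at 0 in every library) had their highest sums at day 14, at 497 and 514 FPKM against 105 to 276 FPKM elsewhere. Nearly all of the day 14 sums came from S100a8 (161 and 218 FPKM) and S100a9 (334 and 295 FPKM). Mpo and Epx were at most at 0.199 FPKM and Prg2 at 1.13 FPKM. Siglec5 was instead highest at day 28, at 1.57 and 1.91 FPKM against 0.413 to 1.15 FPKM elsewhere. The part of these genes and lists in the class I values was not tested.

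The remaining class I heavy chain genes gave a count on the same side. Of 22 listed genes of the Q, M and T regions and relatives, 17 could be tested, and 8 fell and 0 rose between day 5 and day 28 (7.51% and 7.74% of all genes tested), with a median log2 fold change of -0.75. H2-Q10 had 22.6, 22.6 and 21.99 FPKM at day 5 and 12.7 and 13.7 FPKM at day 28 (log2 fold change -0.75, SE 0.14, adjusted p = 0.00883). H2-T24 (-1.18, SE 0.22, adjusted p = 0.0102), H2-Q2 (-0.997, SE 0.22, adjusted p = 0.0183) and H2-Q7 (-1.24, SE 0.30, adjusted p = 0.0247) fell as well. The others that fell were H2-M3, H2-Q8, H2-Q4 and H2-Q1. Genes of these regions are near copies of one another and of H2-K1 and H2-D1, so each value is uncertain. The count of 8 was 0 without day 28 replicate 1, 2 without day 28 replicate 2 or day 5 replicate 1, 3 without either of the other day 5 libraries, and 11 without either day 14 library, and without day 5 replicate 2, 1 gene of the list (H2-T9, named after its value was seen) passed as higher. In edgeR no gene of this list passed for day 14 vs day 5 (2 at an unadjusted p under 0.05, DESeq2 and limma 1 each). None passed in edgeR for day 28 vs day 14 either (10 at an unadjusted p under 0.05, DESeq2 5, limma 0). Over all genes DESeq2 called 1309 and 322 in these comparisons, and limma 252 and 0.

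Genes of peptide generation gave no call. Of the 9 proteasome genes tested, 0 passed in any pairwise comparison by edgeR. For day 28 vs day 5, 4 had an unadjusted p under 0.05 (31.5% of all genes tested), and DESeq2 called 2 and limma 0. Over all genes DESeq2 called 2370 in that comparison, and limma 1802. Without either day 14 library 3 passed in that comparison. The immunoproteasome subunits, the interferon-inducible catalytic subunits, had negative log2 fold changes between day 5 and day 28: Psmb8 -0.51 (SE 0.15, adjusted p = 0.0539), Psmb9 -0.59 (SE 0.19, adjusted p = 0.0668) and Psmb10 -0.38 (SE 0.14, adjusted p = 0.0858). Psmb9 lies beside Tap1 and measured 62.4, 47.3 and 48.5 FPKM at day 5 and 36.3 and 33.1 FPKM at day 28. Their constitutive counterparts did not pass either, with Psmb5 at 0.26 (SE 0.12, adjusted p = 0.165). The proteasome activators Psme1 (-0.22, SE 0.12, adjusted p = 0.259) and Psme2 (-0.33, SE 0.14, adjusted p = 0.142) did not pass.

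The general chaperones of the loading complex did not pass the test. Calreticulin (Calr) was at 0.09 (SE 0.12, adjusted p = 0.640), calnexin (Canx) at -0.10 (SE 0.11, adjusted p = 0.579) and the disulfide isomerase Pdia3 at 0.18 (SE 0.11, adjusted p = 0.282) on the log2 scale between day 5 and day 28. The tapasin-related Tapbpl was at -0.20 (SE 0.19, adjusted p = 0.510). Of 13 loading and trimming genes tested 1 fell, Lnpep, an endosomal aminopeptidase that trims peptides for cross-presentation (-0.53, SE 0.13, adjusted p = 0.0261), and it was also lower at day 14 than at day 5 (-0.58, SE 0.13, adjusted p = 0.0423), a call lost in limma and without any single day 5 or day 14 library. Among 11 cross-presentation genes 1 fell between day 5 and day 28, Wdfy4 (-0.50, SE 0.14, adjusted p = 0.0378), known for its need in cross-presentation by dendritic cells. Such counts of 1 lay near the 7.51% of all genes that fell. Both calls at day 28 were lost without any single day 5 library and without day 28 replicate 1, and that of Wdfy4 also without day 28 replicate 2. The medians of these lists, 0.03 and -0.11, lay near that of all genes.

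Among 17 transcription factors that act on class I promoters, 3 fell and 1 rose between day 5 and day 28, where 7.51% of all genes tested fell and 7.74% rose. Those that fell included Rela, the p65 subunit of NF-kB (log2 fold change -0.83, SE 0.18, adjusted p = 0.0156), and Irf9, which takes part in type I interferon signalling (-0.61, SE 0.13, adjusted p = 0.0176). Irf1 (-0.46, SE 0.24, adjusted p = 0.222), Irf8 (-0.41, SE 0.23, adjusted p = 0.246) and Rfx5 (0.43, SE 0.24, adjusted p = 0.246), an RFX subunit shared by class I and class II promoters, did not pass. The count of 3 was 0 without day 5 replicate 1, 1 without either day 28 library, 2 without day 5 replicate 2 and 5 without either day 14 library.

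The factor that rose was Ciita, the class II transactivator and relative of Nlrc5. It measured 2.11, 2.49 and 1.82 FPKM at day 5, 7.56 and 6.43 FPKM at day 14, and 7.77 and 8.84 FPKM at day 28, with no overlap between day 5 and the later libraries. Ciita rose 3.88-fold between day 5 and day 28 (log2 fold change 1.96, SE 0.15, adjusted p = 0.000541), having risen by day 14 (1.72, SE 0.16, adjusted p = 0.00475). The 6 class II genes all rose between day 5 and day 28, where 7.74% of all genes tested rose. All 6 also rose between day 5 and day 14, where 4.78% of all genes tested passed in either direction. With the replicate number added to the fit as a term, 6 passed for day 28 vs day 5. For day 14 vs day 5 that fit called 0 of them, and 6 of all 12858 genes. Between day 14 and day 28, 0 class II genes passed by edgeR, DESeq2 or limma, with 1 at an unadjusted p under 0.05. The call of Ciita and at least 5 of the 6 class II calls held for day 28 vs day 5 without any single library, whereas for day 14 vs day 5 limma called 2 class II genes and leaving out 1 library left 1 to 6 of the 6 in edgeR. Cd74, the class II invariant chain, was at 1.41 (SE 0.20, adjusted p = 0.00345) and H2-Aa at 1.41 (SE 0.22, adjusted p = 0.00446) for day 28 vs day 5. At day 14 these stood at 0.997 (SE 0.20, adjusted p = 0.0329) and 1.02 (SE 0.22, adjusted p = 0.0358). Nlrc5 and Ciita were thus on opposite sides of 0 at day 28, each past the threshold.

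**Figure D3:**
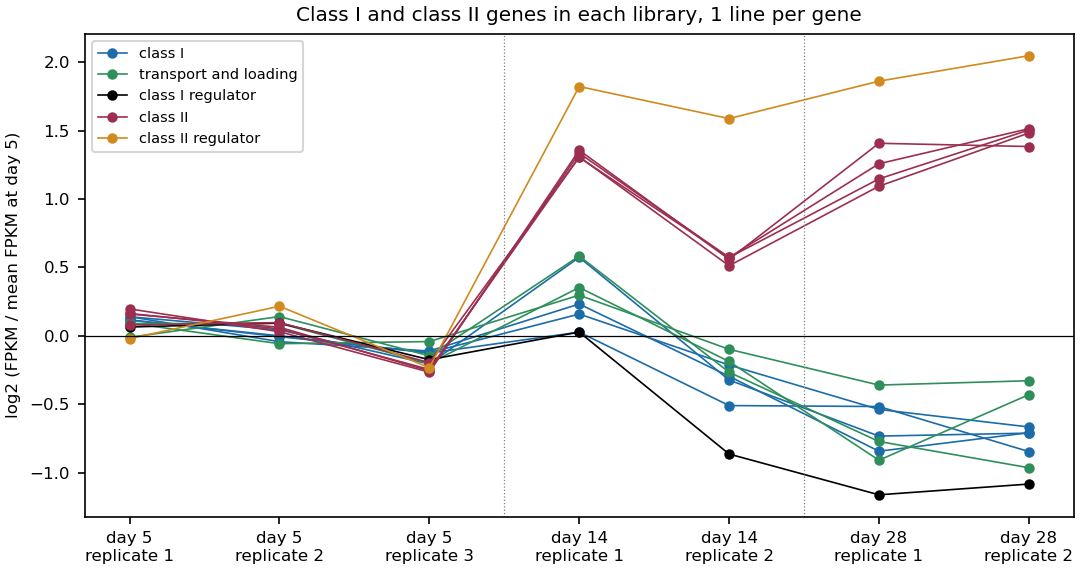
Log2 of FPKM over the day 5 mean (y axis) in each of the 7 libraries (x axis) for H2-K1, H2-D1, H2-T23 and B2m (class I), Tap1, Tap2 and Tapbp (transport and loading), Nlrc5, the class II genes H2-Aa, H2-Ab1, H2-Eb1 and Cd74, and Ciita, with lines that only join the points of a gene. All class I, transport and loading points lie below 0 at day 28, where Nlrc5 is lowest at 4.30 and 4.54 FPKM, and all class II points and Ciita lie above 0 at day 14 and day 28.

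Interferon receptors and interferon-induced genes were read because they stand upstream of class I transcription and beside it. Ifng itself was at 0 fragments in 6 libraries and at 9 fragments in day 14 replicate 1, and was not tested. Its receptor genes Ifngr1 (log2 fold change -0.18, SE 0.13, adjusted p = 0.381) and Ifngr2 (-0.37, SE 0.16, adjusted p = 0.144) did not pass between day 5 and day 28. Of 9 ligand and receptor genes tested 1 fell, a count near the 7.51% of all genes tested that fell. It was Ifnar1, the type I interferon receptor subunit (-0.48, SE 0.14, adjusted p = 0.0492), and without any single day 5 or day 28 library it no longer passed. At day 14 it was at -0.58 against day 5 (SE 0.14, adjusted p = 0.0492), a call kept in 1 of the 7 fits without 1 library and lost in limma. Of 16 interferon-induced genes 9 fell and 1 rose between day 5 and day 28 (7.51% and 7.74% of all genes tested), with a median of -1.22. The lowest adjusted p belonged to Igtp, an immunity-related GTPase (-1.70, SE 0.27, adjusted p = 0.00511), Oasl2 (-1.50, SE 0.25, adjusted p = 0.00591), Ifit2 (-2.02, SE 0.38, adjusted p = 0.00981) and Isg15 (-1.96, SE 0.39, adjusted p = 0.0115). The gene that rose, named after its value was seen, was the chemokine Cxcl9 (3.05, SE 0.89, adjusted p = 0.0475), at no more than 0.212 FPKM at day 5 and at 1.73 and 0.615 FPKM at day 28. The count of 9 was 1 without day 28 replicate 2, 2 without day 28 replicate 1, 6 without day 5 replicate 1 or 2, and 13 without either day 14 library, and Cxcl9 passed only where all day 5 and day 28 libraries were kept.

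**Figure D4:**
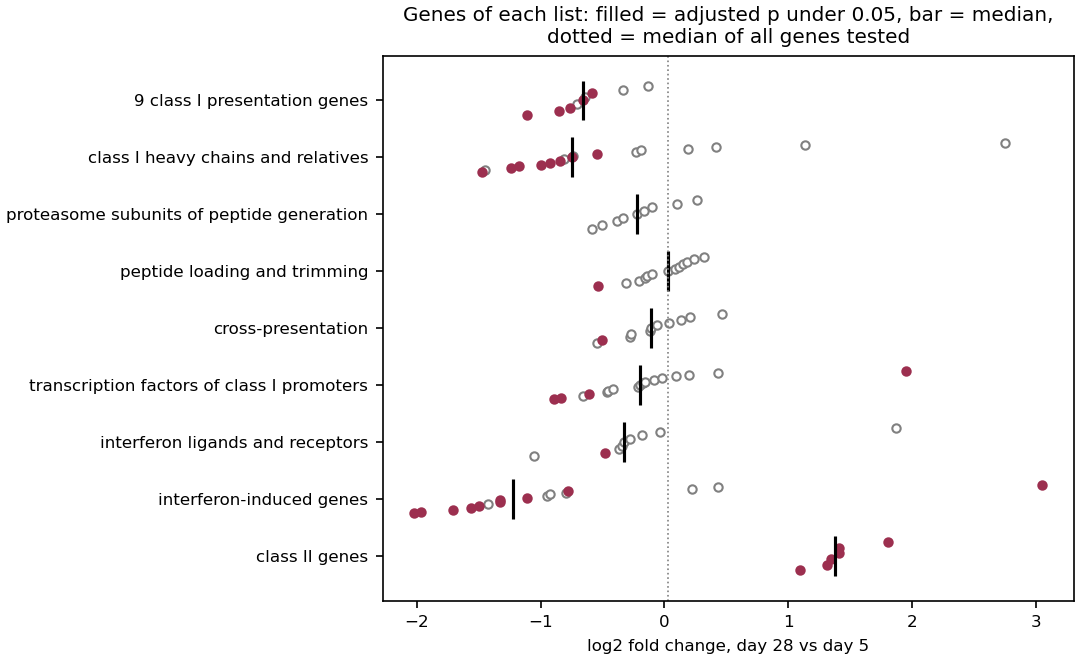
Log2 fold change between day 28 and day 5 (x axis) for each tested gene of 9 groups, with 1 point per gene, filled for adjusted p under 0.05, a bar at the group median and a dotted line at the median of all 12858 genes tested. The 9 class I presentation genes (median -0.66), other class I heavy chains (-0.75) and interferon-induced genes (-1.22) lie mostly left of the line. Interferon ligand and receptor genes (-0.33), proteasome genes (-0.22) and transcription factors (-0.19) also lie mostly left of it, at smaller medians. Loading (0.03) and cross-presentation genes (-0.11) lie around it, and class II genes (1.38) lie to its right.

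The genes whose course was most like that of 4 of the members were listed over the 7 libraries, by the root mean square difference of mean-centred log2(FPKM + 1) among 7547 genes with a mean of at least 5 FPKM. For Tap1 they included Epsti1 (difference 0.129) and Ifi47 (0.137), Epsti1 being an interferon-responsive gene and Ifi47 an interferon-induced GTPase gene. For H2-K1 they were the class I-like gene Gm11127 (0.042), Sepw1 (0.053) and the peptidoglycan sensor Nod1 (0.056). For B2m they were Ifitm1 (0.073), the complement protease gene C1ra (0.077) and Rnf114 (0.082), and for Nlrc5 they were Ogfr (0.065), Pmp22 (0.068) and 2210039B01Rik (0.072). These are descriptions over libraries that share day and depth, and they carry no test.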

How the data were processed

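Poly(A)+ RNA of sorted macrophages was sequenced as single-end reads from non-stranded libraries of 7 samples, grouped by the time point in the labels. Per the study's methods and the submitters' processing notes, the authors trimmed reads with cutadapt 1.8, mapped them to mm10 with TopHat2 2.0.13 and quantified genes with Cuffdiff 2.2.1. How reads with several map positions were divided is not given in the sources used here. The authors deposited 1 table with estimated counts of fragments per gene, of which 1.01% were not whole, the same counts scaled by 1 factor per library (a signal), and FPKM values. No member had a failed status.

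Estimated counts were rounded and fitted with edgeR 4.0.16 (R 4.3.3, TMM, filterByExpr by time point, quasi-likelihood test, two-sided) over all 7 libraries, with time point as the only term. Of 23361 genes 12858 were tested, p-values were adjusted by Benjamini-Hochberg over all of them, and 0.05 was the threshold. Standard errors are the fold change over the root of F, and 95% intervals use the matching t distribution. The spread is that between these libraries. FPKM was used for levels, with no test. Alternatives were DESeq2 1.42.0, limma 3.58.1 on log2(FPKM + 1) or log2(FPKM + 0.1), other size factors, no filter, only the compared time points, a replicate block, each library left out and a threshold of 0.01. The edgeR, DESeq2 and limma fits were run on simulated counts with the same spread for all genes and changes placed only at day 14. That run does not measure the error rate of the calls at day 28.

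The 9 genes, the gene lists and the motifs were chosen with earlier results of these data, or the sequences, known. Named were the 9 genes, 17 fixed pathway genes, up to 4 genes of each list with the lowest adjusted p under 0.05 in a pairwise comparison, and the 3 genes most like Nlrc5, Tap1, H2-K1 and B2m, apart from some that are not reported here. Sequences were from RefSeq (GRCm38.p6) and coordinates from GENCODE M21. Depth was 18027190 to 35247116 fragments, and a count of 3 fragments was taken as the limit that a count of 0 allows.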

Additional observations from a re-analysis of the deposited data

How the results depend on the processing

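The 5 genes lower at day 28 than at day 5 became 8 when only those time points were fitted, 2 with the replicate number of the labels as a block (replicate block; B2m and Nlrc5) and 0 at an adjusted p under 0.01, and ranged from 0 to 8 over the fits without 1 library. DESeq2 and the fit without the filter on low counts gave 7, limma 4, and other size factors 5. Over all genes, in either direction, the fit of only those time points called 2778, DESeq2 2370 and the fit without the filter 2466. Limma called 1802 or 1744 by pseudocount, and other size factors 1943 each. Deviations from the group means of same-numbered libraries correlated between -0.054 and 0.175 over 7613 genes. In groups of 2 libraries these deviations mirror each other, so few of the correlations are independent. They cannot decide whether the replicate numbers pair the samples. For day 28 vs day 14 the count of 0 became 5 with DESeq2 and 5 without the filter, and 0 to 8 without 1 library. For day 14 vs day 5 it was 0 to 1 without 1 library, and for day 14 against the mean of the other time points it was 1 without the filter (Tap1) and 0 to 3 without 1 library. Over all genes, the 1960 calls for day 28 vs day 5 were 735 with the block, 452 without day 28 replicate 1 and 1012 without day 28 replicate 2. Each of the 9 genes kept a negative day 28 vs day 5 value in every alternative run, and ratios of scaled fragments gave the same levels as FPKM.

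Some values changed sign, and none was past the threshold where its sign was changed. For day 14 vs day 5, H2-K1 was -0.0085 with DESeq2, -0.027 with limma at either pseudocount, -0.0084 with RLE size factors, -0.0073 with the Cuffdiff scaling, -0.0015 without the filter and -0.063 with the block, and H2-D1 was 0.0019 with only the compared time points. Over the fits without 1 library the day 14 vs day 5 values ran from -0.28 to 0.24 for H2-K1, -0.20 to 0.17 for H2-D1, -0.31 to 0.58 for H2-T23, -0.49 to 0.033 for B2m, -0.25 to 0.59 for Tap1, -0.083 to 0.30 for Tap2, -0.17 to 0.36 for Tapbp and -0.85 to 0.034 for Nlrc5, which passed the threshold at -0.85. Erap1 for day 28 vs day 14 ran from -0.039 to 0.17, and the day 14 values against the mean ran from -0.17 to 0.36 for B2m and -0.29 to 0.59 for Nlrc5. The cause of these changes was not tested. A time point left with 1 library was assumed to vary like the others. With 2 libraries at day 14 and day 28, precision was limited by the number of libraries.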
